A study of Homo sapiens with 9 samples.

Results

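CDK12, its relative CDK13 and 8 other kinase and cyclin genes of the machinery that phosphorylates RNA polymerase II were followed at the RNA level after depletion of CDK12. The 10 genes were CDK12, CDK13, CCNK, CDK9, CCNT1, CCNT2, CDK7, CCNH, MNAT1 and CDK11B. They were taken by symbol from the 57773 genes listed, for their place in the machinery, and each symbol was found once. Earlier results of these data were known when they were chosen. The cells were OVCAR-8, an established human ovarian cancer line, grown in RPMI-1640 medium with fetal bovine serum and harvested 48 h after siRNA transfection. Of the 9 libraries, 3 came from cells given the CDK12 siRNA named CDK12-2, 3 from cells given the CDK12 siRNA named CDK12-6, and 3 from cells given a luciferase siRNA as the control. The 3 libraries of a group are numbered AK39, AK41 and AK49, and what the numbers stand for is unknown. The design text calls the libraries of a group technical replicates, and whether they came from separate transfections is not stated. Every p-value measures only the spread between these libraries, which may be technical.

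The largest subunit of RNA polymerase II carries a long tail of repeated heptapeptides, the C-terminal domain (CTD), and kinases act on it in turn through the transcription cycle. CDK7, with cyclin H (CCNH) and the assembly factor MNAT1, forms the kinase module of TFIIH and acts near the promoter. CDK9 with cyclin T1 or T2 (CCNT1, CCNT2) forms P-TEFb, which releases the paused polymerase. CDK12 and CDK13, both bound to cyclin K (CCNK), act on the elongating polymerase, and loss of CDK12 is known for lowering the full-length transcripts of long DNA repair genes. CDK11B, a kinase that works with L-type cyclins, is linked to transcription and splicing.

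CDK12 and CDK13 are paralogues, and the likeness of their transcripts bears on whether reads or an siRNA could be shared. In an alignment of the coding sequences (GENCODE release 29), 63.0% of 4012 aligned bases were identical. The longest identical run was 25 bases and lay across the junction of exons 5 and 6 in both genes. It is shown in capitals with the coding bases around it, 5′ to 3′ on the plus strand with the intron removed, from chr17:39494639-39501288 for CDK12-202 and chr7:40001976-40045874 for CDK13-201 (GRCh38).
CDK12: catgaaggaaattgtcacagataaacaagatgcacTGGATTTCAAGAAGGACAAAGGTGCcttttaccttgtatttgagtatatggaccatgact
CDK13: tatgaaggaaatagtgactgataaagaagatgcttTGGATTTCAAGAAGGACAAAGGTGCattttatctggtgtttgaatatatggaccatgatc
Of these 95 bases, 81 were identical. Stretches of 19 bases, about the length an siRNA pairs with, were pooled over all protein-coding transcripts of each gene. Of the distinct ones, 7 of 8856 in CDK12 also occurred in CDK13, which is 0.0790%. None of the 8908 stretches of 50 bases, pooled likewise, did. The sequences of CDK12-2 and CDK12-6 were not used here, so whether either falls in the shared run was not tested.

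CDK11B has a near-identical neighbour, CDK11A, and its values are less certain for that reason. In the coding sequences of CDK11B-203 and CDK11A-201, 98.5% of 2238 aligned bases were identical. Pooled over all protein-coding transcripts of each gene, 1450 of 4082 distinct 100-base stretches of CDK11B (35.5%) also occurred in CDK11A. A stretch of coding exon 3 of CDK11B (chr1:1655397-1655457, GRCh38, minus strand) and its counterpart in exon 2 of CDK11A (chr1:1721624-1721684, minus strand) differ at 1 base in 61, shown as a capital.
CDK11B: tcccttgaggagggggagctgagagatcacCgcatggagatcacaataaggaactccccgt
CDK11A: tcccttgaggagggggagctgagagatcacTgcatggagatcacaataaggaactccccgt
The sources used here do not say how the authors' counting divided reads that match both genes. CCNT1 and CCNT2, with 64.8% of 1932 aligned coding bases identical, shared no stretch of 50 bases.

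The deposited values are RPKM, read counts scaled to the length of the gene and to the size of the library. Library sizes recovered from them were 130719727 to 173421141 reads, and each member rested on 2076 to 15708 reads per library. Markers of the line were mixed: PAX8 lay at 5.71 to 9.63 RPKM and the keratin genes KRT8 and KRT18 at 126 RPKM or more. WT1 lay at only 0.737 to 1.01 RPKM, and MUC16 was at or near 0 in all 9 libraries. The keratin gene KRT7 and EPCAM, an epithelial adhesion gene, did not overlap between groups, with 57.7 to 85.7 and 3.41 to 4.05 RPKM under CDK12 siRNA, against 45.9 to 50.9 and 2.45 to 2.70 RPKM under luciferase siRNA. Of 15208 genes tested, 14.3% were likewise higher in all 6 CDK12 siRNA libraries than in every luciferase library. The leukocyte genes PTPRC and CD3E were at or near 0, and the fibroblast-associated genes COL1A1 and PDGFRB overlapped between the groups, at 12.5 to 36.1 and 0.586 to 1.26 RPKM over all libraries. CDK12-2 AK39, CDK12-6 AK39 and luciferase AK41 stood apart from the other libraries of their groups. Small RNAs that lack a poly(A) tail took 0.178% to 0.189% of their reads, against 0.102% to 0.152% in the other 6, although the library kit selects RNA with a poly(A) tail. Reads in listed genes were 68.2%, 70.5% and 75.8% of the library size in these 3, in that order, against 77.3% to 82.7% in the other 6. RPKM is scaled to the whole library size.

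CDK12 RNA was 69.5% lower with the CDK12 siRNAs than with luciferase siRNA, and the difference between the 2 siRNAs was smaller than its error. CDK12 had 2.06, 2.57 and 2.70 RPKM in the AK39, AK41 and AK49 libraries of CDK12-2, and 2.09, 2.37 and 2.75 RPKM in those of CDK12-6. The luciferase libraries had 8.33, 7.09 and 8.40 RPKM. All 6 CDK12 siRNA libraries lay below all 3 luciferase libraries, with 4103 to 4829 reads under CDK12 siRNA against 13909 to 15708 under luciferase siRNA. The means were 2.42 ± 0.298 RPKM (SD, n = 6) with CDK12 siRNA and 7.94 ± 0.737 RPKM (SD, n = 3) with luciferase siRNA. Less CDK12 RNA in every cell and loss of it in part of the cells cannot be told apart in these bulk libraries.

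On the log2(RPKM + 1) scale, which understates the change of low genes, CDK12 fell by 1.39 ± 0.095 (SE) for the mean of both siRNAs (limma, adjusted p = 1.5e-05). CDK12-2 gave -1.38 ± 0.11 and CDK12-6 gave -1.39 ± 0.11 (limma, adjusted p = 5.8e-05 and 5.3e-05). The direct difference of CDK12-2 minus CDK12-6 was 0.016 on the log2 scale, with a 95% confidence interval from -0.23 to 0.26, or from -0.10 to 0.13 with the AK number as a block between the 2 siRNAs. Within each AK number the log2 ratio of plain RPKM lay between -2.01 and -1.47. Without the 3 libraries that stand apart the change was -1.38 (limma, adjusted p = 7.2e-05). The authors' deposited table gives a log2 fold change of -1.73 and an FDR of 7.4e-12 for CDK12. The gene (ENSG00000167258) spans 37617764 to 37721160 on chromosome 17 in hg19, and the only genes listed within it, RNU6-981P and RNU6-233P, averaged 0.0441 RPKM and 0 in the CDK12 siRNA libraries.

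**Figure D1:**
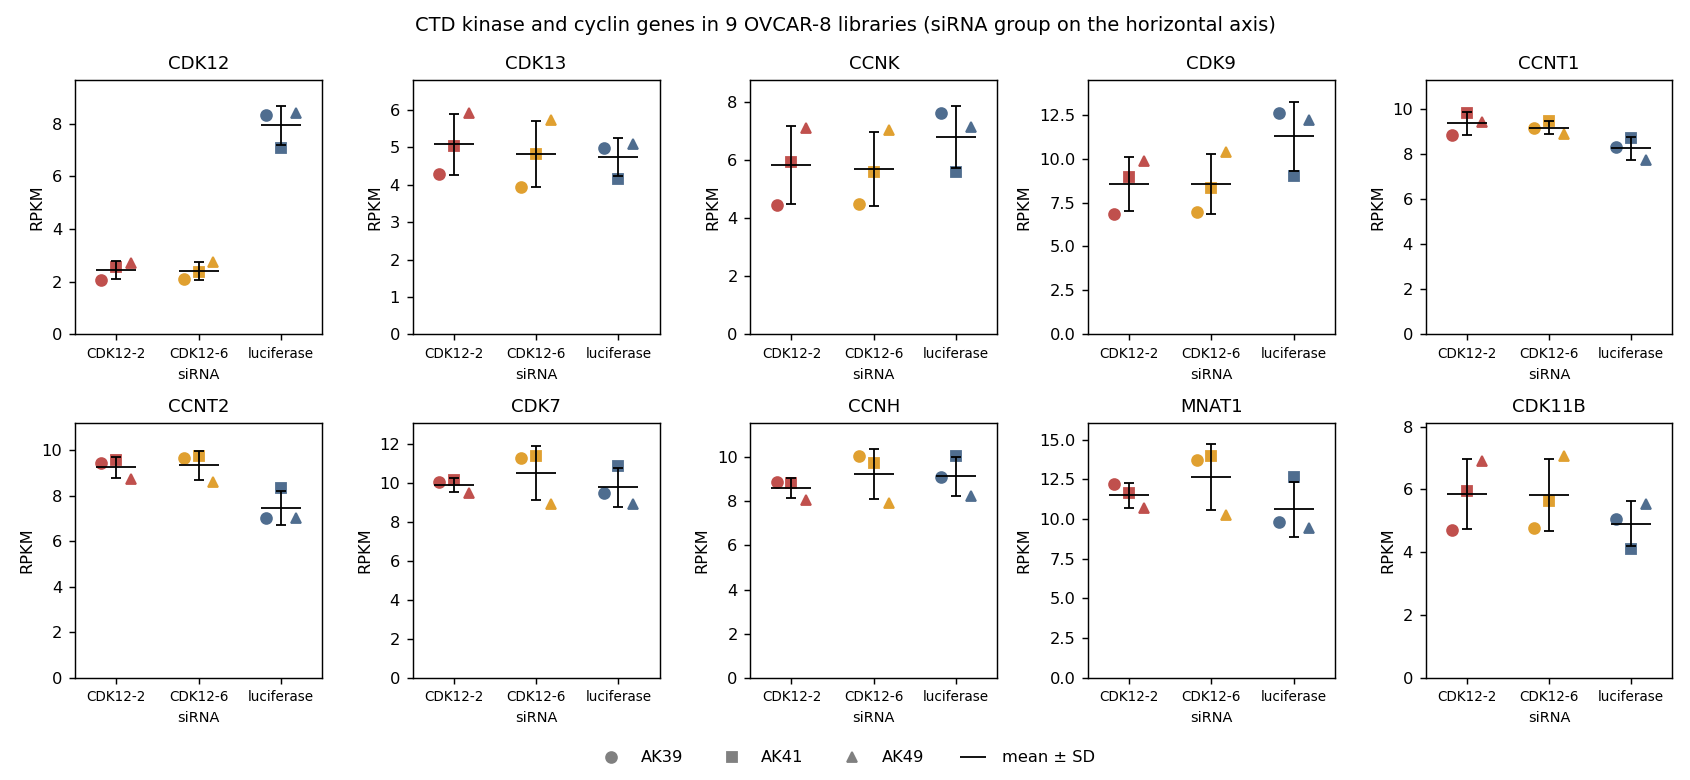
RPKM of the 10 genes (vertical axes from 0, scales differ) in the CDK12-2, CDK12-6 and luciferase siRNA groups, with 1 point per library shaped by AK number and the mean ± SD of 3 libraries. CDK12 lies at 2.06 to 2.75 RPKM in the CDK12 siRNA libraries and at 7.09 to 8.40 RPKM in the luciferase libraries, while the groups of CDK13, CCNK, CDK9, CDK7, CCNH, MNAT1 and CDK11B overlap.

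For the mean of both siRNAs, 2 of the 10 genes passed the test, CDK12 as lower and CCNT2 as higher. Of all 15208 genes tested, 33.0% passed (19.7% lower and 13.3% higher), so the share among the members, 20%, was not above that of genes in general. The median log2 fold change was 0.053 over the 10 members and -0.037 over all genes tested. The same 2 members passed with CDK12-2 alone and with CDK12-6 alone, where 25.2% (15.4% lower and 9.76% higher) and 26.0% (15.6% lower and 10.4% higher) of all genes passed. These comparisons share the 3 luciferase libraries. Between CDK12-2 and CDK12-6 no member and none of the 15208 genes (0.0%) passed in limma, and none passed in limma voom on recovered reads. At an unadjusted p under 0.05 there were 101 genes in limma, none of them a member, and 65 in limma voom. With the AK number as a block in a fit of these 6 libraries alone, 2 of 14821 genes passed in limma, neither of them a member, and 1243 had an unadjusted p under 0.05. The differences of the members, CDK12-2 minus CDK12-6, ran from -0.12 (MNAT1) to 0.065 (CDK13) on the log2 scale. By range, CDK12 was lower in all 6 CDK12 siRNA libraries than in every luciferase library, and CCNT1 and CCNT2 were higher. That is 3 of 10 members without overlap, against 34.2% of all genes tested (19.9% lower and 14.3% higher).

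CDK13, which shares cyclin K with CDK12, overlapped between the groups. Its values were 4.29, 5.04 and 5.92 RPKM with CDK12-2 (AK39, AK41, AK49), 3.94, 4.81 and 5.72 RPKM with CDK12-6, and 4.97, 4.15 and 5.08 RPKM with luciferase. Under CDK12 siRNA 2 libraries lay above the highest luciferase library and 1 lay below the lowest. With both siRNAs averaged, the log2 fold change was 0.048 ± 0.12 (limma, adjusted p = 0.79). Its 95% confidence interval, as a fold of RPKM + 1, ran from 0.860 to 1.24, so a change within those bounds was not excluded. The gene lies on chromosome 7 from 39989636 to 40136733 (hg19), with no other listed gene within its span.

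The balance of the 2 cyclin K kinases was reversed under CDK12 siRNA. The ratio of CDK12 to CDK13 RPKM within a library, which library scaling cannot move, was 0.481, 0.509 and 0.456 with CDK12-2 and 0.530, 0.493 and 0.481 with CDK12-6, against 1.68, 1.71 and 1.65 with luciferase. CDK12 RNA was thus below CDK13 RNA in every CDK12 siRNA library and above it in every luciferase library. The mean ratio was 0.492 ± 0.0258 (SD, n = 6) with CDK12 siRNA and 1.68 ± 0.0275 (SD, n = 3) with luciferase siRNA (exact two-sided permutation test over libraries, p = 0.0119, adjusted over 6 ratios 0.0238). With 84 arrangements of the libraries, 0.0119 is the smallest p this design can give, and it treats the 6 CDK12 siRNA libraries as independent. With the CDK12-2 and CDK12-6 libraries of a number averaged, 3 values against 3, the exact permutation p was 0.1, the smallest that design allows. CDK12, the siRNA target, is part of this ratio, so its shift is not independent of the lower CDK12. Scaled to the lengths of the GENCODE transcripts in place of the listed gene lengths, the ratio was 0.794 to 0.923 with CDK12 siRNA and 2.88 to 2.98 with luciferase siRNA, so the reversal held on both lengths.

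CCNK, the cyclin of both kinases, was not called. It had 4.46, 5.94 and 7.14 RPKM with CDK12-2, 4.50, 5.59 and 7.04 RPKM with CDK12-6, and 7.64, 5.62 and 7.16 RPKM with luciferase. The groups overlapped, with 3 of 6 CDK12 siRNA libraries below the lowest luciferase library, and the log2 fold change was -0.21 ± 0.16 (limma, adjusted p = 0.33). Within the AK39 libraries the log2 ratio of RPKM was -0.77 with CDK12-2 and -0.76 with CDK12-6, while within AK41 and AK49 it lay between -0.025 and 0.082. The ratio of CCNK to the sum of CDK12 and CDK13 was 0.778 ± 0.0492 (n = 6) with CDK12 siRNA and 0.535 ± 0.0375 (n = 3) with luciferase siRNA, with no overlap (exact permutation p = 0.0119, adjusted 0.0238). CDK12 is part of that sum, so the higher ratio is not independent of the lower CDK12. CCNK (chromosome 14, 99947506 to 100001381, hg19) overlaps CCDC85C over 23779 bases, and RP11-688G15.3, of 1076 bases, lies wholly within it. CCDC85C averaged 6.28 ± 1.22 RPKM with CDK12 siRNA and 9.25 ± 1.56 RPKM with luciferase siRNA. RP11-688G15.3 averaged 11.7 ± 2.04 RPKM with CDK12 siRNA and 17.6 ± 3.33 RPKM with luciferase siRNA, above CCNK itself. Both means were lower with CDK12 siRNA, as was that of CCNK, and the part of either gene in the CCNK values was not tested. Reads cannot be told apart where exons of these genes overlap, since the kit does not mark strand.

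**Figure D2:**
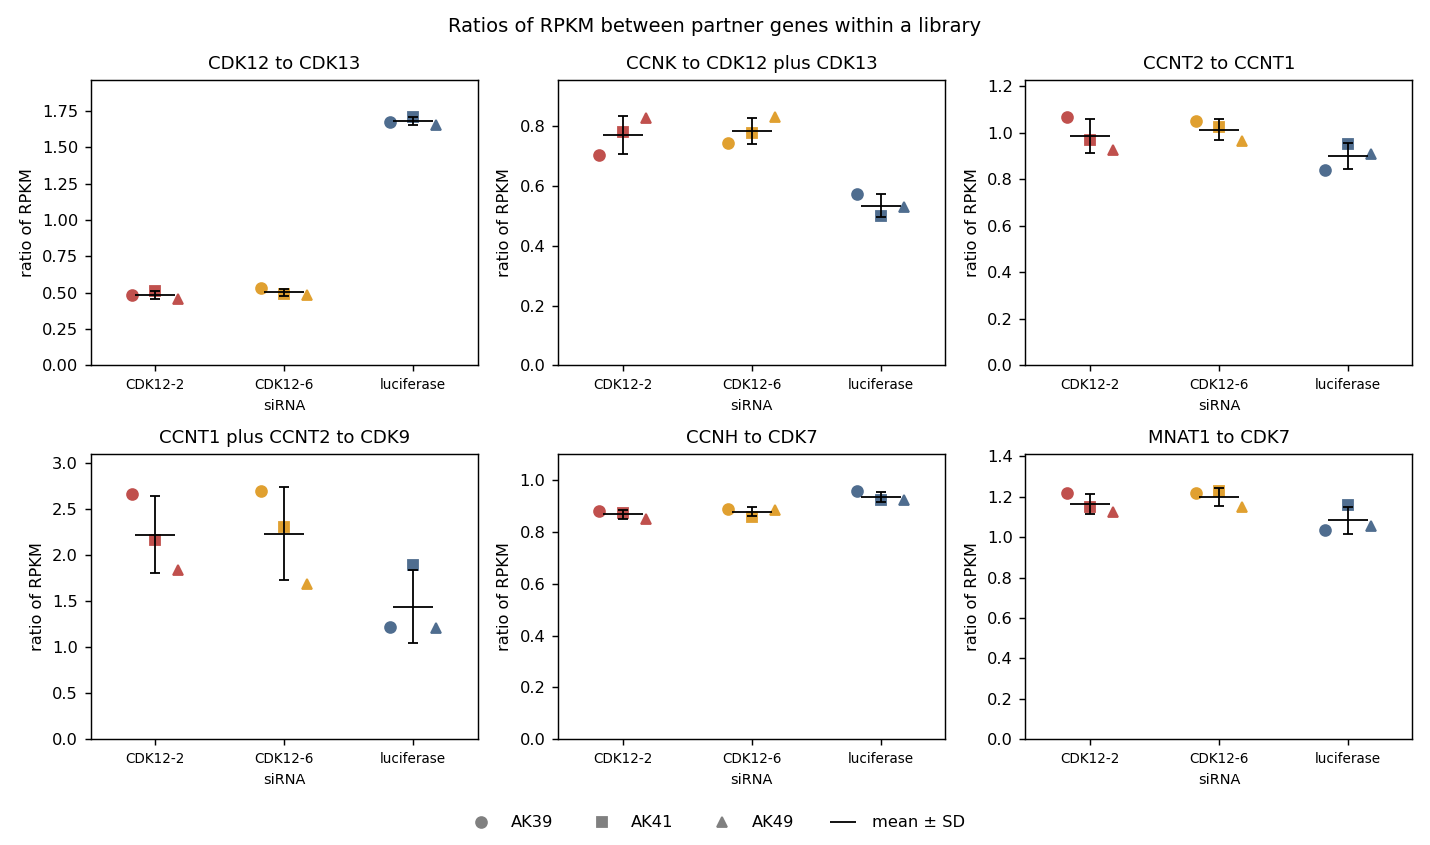
Ratios of RPKM between partner genes within a library (vertical axes from 0, no unit) for the CDK12-2, CDK12-6 and luciferase siRNA groups, with 1 point per library and the mean ± SD of 3 libraries. CDK12 to CDK13 lies at 0.456 to 0.530 in the CDK12 siRNA libraries and at 1.65 to 1.71 in the luciferase libraries, and CCNH to CDK7 also shows no overlap, over a narrow range.

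Among the P-TEFb genes, the cyclin T2 gene CCNT2 was higher with CDK12 siRNA, while the kinase gene CDK9 had a lower mean that passed only under some settings. CCNT2 had 9.44, 9.55 and 8.72 RPKM with CDK12-2, 9.64, 9.73 and 8.60 RPKM with CDK12-6, and 7.002, 8.31 and 7.03 RPKM with luciferase. All 6 CDK12 siRNA libraries were above all 3 luciferase libraries, by 0.20 to 0.46 in the log2 ratio of RPKM within an AK number. The log2 fold change was 0.29 ± 0.079 (limma, adjusted p = 0.021), or 9.28 ± 0.491 RPKM (SD, n = 6) with CDK12 siRNA against 7.45 ± 0.750 RPKM (SD, n = 3) with luciferase siRNA. The call did not survive the removal of luciferase AK39 (0.25, limma adjusted p = 0.11), luciferase AK49 (0.25, 0.099), CDK12-2 AK41 (0.27, 0.053) or CDK12-6 AK41 (0.27, 0.051), nor of all libraries of any 1 AK number (0.23 to 0.33, 0.072 to 0.16). It was also lost with the CDK12-2 and CDK12-6 libraries of a number averaged (0.29, limma adjusted p = 0.066). With each siRNA alone it rested on adjusted p-values near the threshold, 0.0496 for CDK12-2 and 0.042 for CDK12-6 (limma). Without the 3 libraries that stand apart it was 0.34 (limma, adjusted p = 0.018). The authors' deposited table gives CCNT2 a log2 fold change of 0.31 and an FDR of 0.085.

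CDK9 had 6.87, 8.95 and 9.87 RPKM with CDK12-2, 6.98, 8.33 and 10.4 RPKM with CDK12-6, and 12.6, 8.99 and 12.2 RPKM with luciferase. The luciferase AK41 library fell inside the range of the CDK12 siRNA libraries, and 4 of 6 of these were below it. The mean of both siRNAs gave a log2 fold change of -0.36 ± 0.15 (limma, adjusted p = 0.094, unadjusted p = 0.038). Without luciferase AK41 the change was -0.50 (limma, adjusted p = 0.038), and without CDK12-6 AK49 it was -0.43 (limma, adjusted p = 0.040). Without all 3 libraries that stand apart it was -0.37 (limma, adjusted p = 0.024). It also passed after quantile normalization (-0.29, limma adjusted p = 0.037), after scaling to the reads in listed genes (-0.30, 0.044) and with the AK number as a block (-0.36, 0.048). The value was smaller, and did not pass, without luciferase AK39 (-0.28, limma adjusted p = 0.31), without luciferase AK49 (-0.30, 0.27) and without all AK39 libraries (-0.15, 0.50). Within an AK number the log2 ratio of RPKM was -0.87 and -0.85 in AK39, -0.0061 and -0.11 in AK41, and -0.31 and -0.24 in AK49, for CDK12-2 and CDK12-6 in that order. All 6 within-number values were below 0, but their size differed widely. In the authors' deposited table CDK9 has a log2 fold change of -0.41 and an FDR of 0.0037. CDK9 was the only member besides CDK12 under 0.05 in that table, where 14.4% of the 57773 listed genes were. That share counts all listed genes, of which only 15208 passed the filter used here, as all 10 members did. It is thus not a like background for the members.

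CCNT1, the other cyclin of P-TEFb, had 8.84, 9.84 and 9.43 RPKM with CDK12-2, 9.17, 9.50 and 8.90 RPKM with CDK12-6, and 8.32, 8.73 and 7.73 RPKM with luciferase. The groups did not overlap, but the highest luciferase library was close to the lowest CDK12-2 library, and the log2 fold change of 0.15 ± 0.069 did not pass (limma, adjusted p = 0.12). It passed after scaling to the reads in listed genes (0.21, limma adjusted p = 0.044), which was 1 of 21 alternatives. The ratio of CCNT2 to CCNT1 was 1.001 ± 0.0558 (n = 6) with CDK12 siRNA and 0.901 ± 0.0559 (n = 3) with luciferase siRNA (exact permutation p = 0.0357, adjusted 0.0536). The summed cyclin T RNA over CDK9 was 2.23 ± 0.414 (n = 6) with CDK12 siRNA and 1.44 ± 0.394 (n = 3) with luciferase siRNA (exact permutation p = 0.0476, adjusted 0.0571). Neither ratio passed after adjustment over the 6 ratios.

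No gene of the TFIIH kinase module passed the test. CDK7 had a median of 10.1 RPKM (8.94 to 11.4) with CDK12 siRNA and 9.50 RPKM (8.95 to 10.9) with luciferase siRNA. CCNH, the cyclin of CDK7, had 8.86 RPKM (7.92 to 10.04) with CDK12 siRNA and 9.10 RPKM (8.26 to 10.1) with luciferase siRNA. For MNAT1, the assembly factor, the values were 11.9 RPKM (10.3 to 13.97) with CDK12 siRNA and 9.83 RPKM (9.44 to 12.6) with luciferase siRNA. The groups overlapped for all 3 genes. Their log2 fold changes were 0.057 ± 0.094 for CDK7, -0.032 ± 0.092 for CCNH and 0.17 ± 0.12 for MNAT1, and none passed (limma, adjusted p = 0.68, 0.82 and 0.30). The 95% confidence intervals, as folds of RPKM + 1, were 0.900 to 1.20 for CDK7 and 0.848 to 1.13 for CCNH. The direction for CCNH turns under another scaling, to 0.040 after quantile normalization and 0.032 after scaling to the reads in listed genes.

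The ratio of CCNH to CDK7 varied little among the libraries of a group. It was 0.882, 0.873 and 0.849 with CDK12-2 and 0.890, 0.858 and 0.886 with CDK12-6, against 0.958, 0.923 and 0.923 with luciferase. The groups did not overlap, with means of 0.873 ± 0.0162 (n = 6) with CDK12 siRNA and 0.935 ± 0.0202 (n = 3) with luciferase siRNA (exact permutation p = 0.0119, adjusted 0.0238). The difference is small, -0.10 on the log2 scale. The p of 0.0119 is the smallest that 6 against 3 libraries can give. With same-number CDK12 siRNA libraries averaged it was 0.1 (exact permutation, adjusted 0.2). The adjustment over 6 ratios takes in CDK12 to CDK13 and CCNK to CDK12 plus CDK13. Both contain the siRNA target and gave the same p, which lowers the adjusted p of CCNH to CDK7. MNAT1 to CDK7 was 1.18 ± 0.0457 (n = 6) with CDK12 siRNA and 1.08 ± 0.0668 (n = 3) with luciferase siRNA (exact permutation p = 0.0595, adjusted 0.0595). Neighbouring genes set limits here: RASA1 overlaps CCNH over 438 bases, and the long non-coding gene RP11-193F5.1 overlaps MNAT1 over 90240 bases. RP11-193F5.1 was listed at 52.1 ± 5.66 RPKM with CDK12 siRNA and 47.5 ± 8.33 RPKM with luciferase siRNA, above MNAT1 itself, and its part in the MNAT1 values was not tested.

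CDK11B had 4.70, 5.94 and 6.91 RPKM with CDK12-2, 4.78, 5.62 and 7.06 RPKM with CDK12-6, and 5.07, 4.11 and 5.52 RPKM with luciferase. Under CDK12 siRNA 4 of 6 libraries were above the highest luciferase library and none was below the lowest. The log2 fold change was 0.21 ± 0.14 and did not pass (limma, adjusted p = 0.28), but it passed after quantile normalization (limma, adjusted p = 0.021) and after scaling to the reads in listed genes (limma, adjusted p = 0.045). Its near-identical neighbour CDK11A had 3.11 ± 0.599 RPKM (n = 6) with CDK12 siRNA and 2.70 ± 0.323 RPKM (n = 3) with luciferase siRNA (limma, adjusted p = 0.42). Since the pair can exchange reads, the split between them is uncertain.

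**Figure D3:**
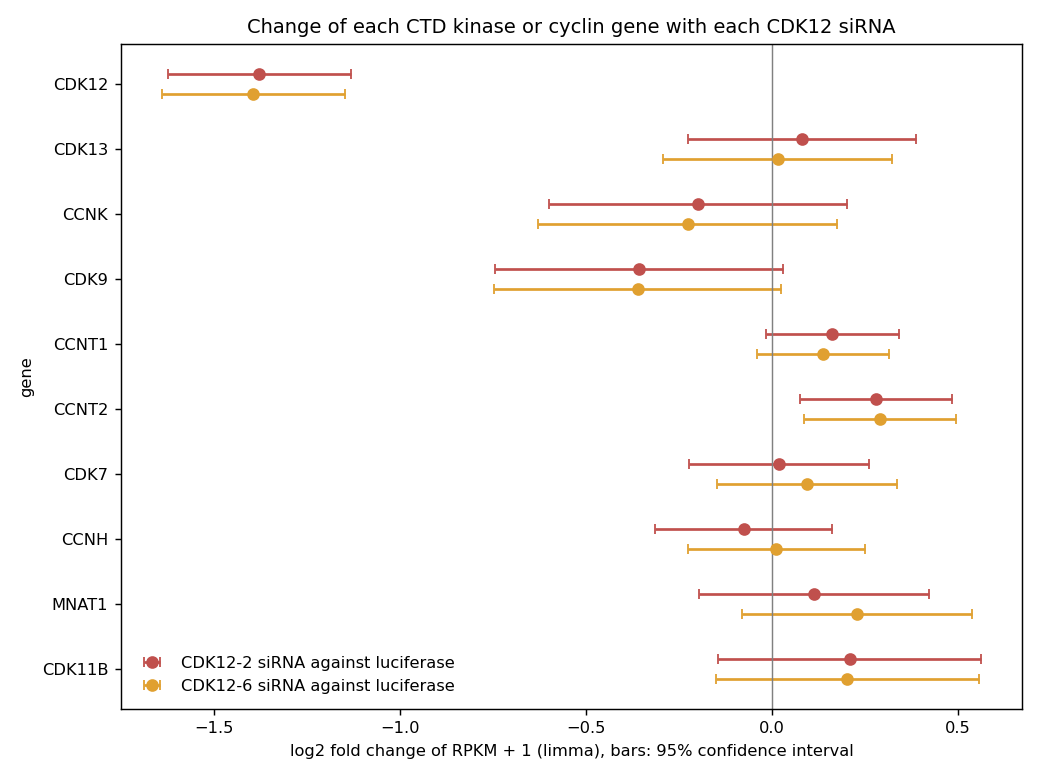
Log2 fold change of RPKM + 1 (horizontal axis) of the 10 genes for CDK12-2 (upper of each pair) and CDK12-6 (lower) against luciferase, with 95% confidence intervals from limma. The intervals of CDK12 lie between -1.64 and -1.13, those of CCNT2 lie above 0, and those of the other 8 genes include 0; both comparisons use the same 3 luciferase libraries.

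RPKM is scaled to the listed gene length, and the order of the levels below holds for those lengths. With CDK12 siRNA the order of mean RPKM was MNAT1, CDK7, CCNT2, CCNT1, CCNH, CDK9, CDK11B, CCNK, CDK13 and CDK12. With luciferase siRNA it was CDK9, MNAT1, CDK7, CCNH, CCNT1, CDK12, CCNT2, CCNK, CDK11B and CDK13. CDK12 was thus in the last place of 10 under CDK12 siRNA and in the sixth under luciferase siRNA. Neighbours in these orders overlapped in range, except CDK13 and CDK12 under CDK12 siRNA and CCNK and CDK11B under luciferase siRNA. The means of the other 9 genes lay between 4.73 and 12.1 RPKM in both groups. The listed length can be far from that of the GENCODE transcript, as for CCNK, with 8220 bases listed and 3524 in CCNK-201. Scaled to the transcripts, CCNK was in the fourth place with CDK12 siRNA and the third with luciferase siRNA, while CDK12 kept the last and the sixth.

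The members split into groups by how libraries deviated from the mean of their own siRNA group. CDK12, CDK13, CCNK, CDK9 and CDK11B each had their lowest library in CDK12-2 AK39, CDK12-6 AK39 and luciferase AK41. These are the 3 libraries with the most small RNA without a poly(A) tail and the lowest share of reads in listed genes. The other 5 genes did not, and CCNH had its highest value of each group in these 3 libraries. The GC content of the transcripts was 44.2% to 56.6% in the first 5 genes and 35.2% to 40.8% in CCNT1, CCNT2, CDK7, CCNH and MNAT1. CCNK spanned the widest range, from 0.31 below the group mean in CDK12-2 AK39 to 0.28 above it in CDK12-6 AK49, on the log2(RPKM + 1) scale. For 6 of the 10 genes, CCNK, CDK13, CDK11B, CDK7, CCNH and MNAT1, the largest deviation exceeded the difference between the CDK12 siRNA and luciferase groups. Without the 3 libraries that stand apart, the log2 fold changes were -0.18 for CCNK, 0.077 for CDK13 and 0.23 for CDK11B, and none passed (limma, adjusted p = 0.23, 0.57 and 0.14).

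**Figure D4:**
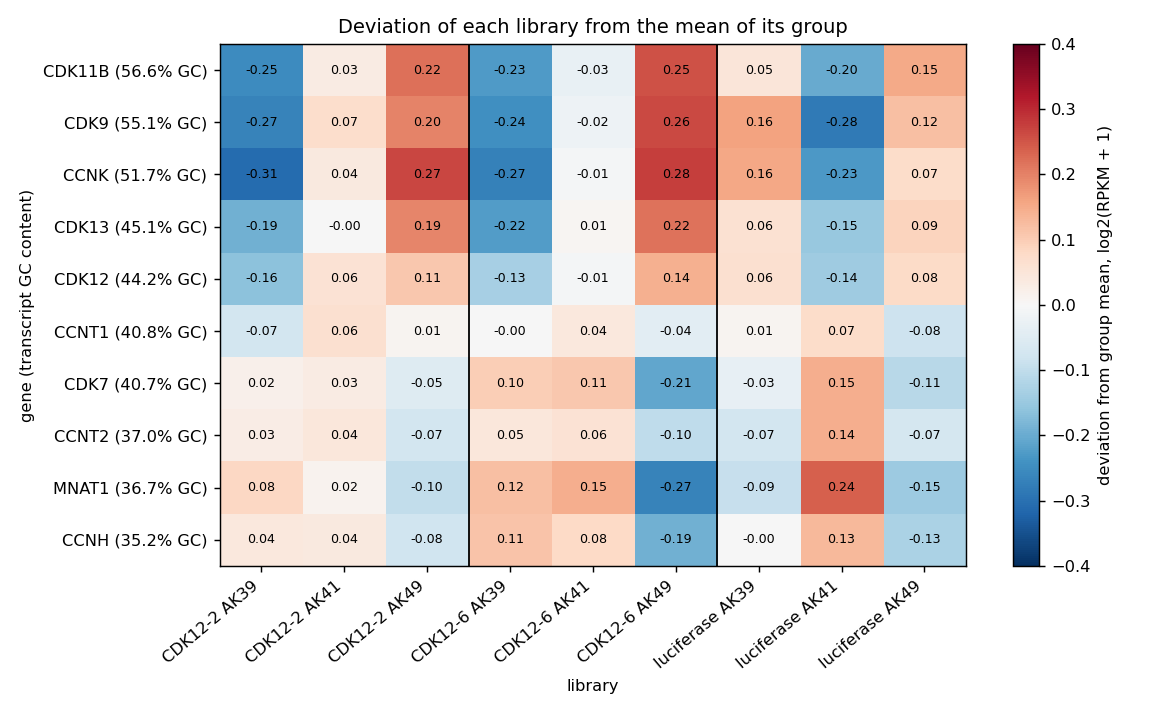
Deviation of each library (columns, CDK12-2, CDK12-6, luciferase) from the mean of its own siRNA group for the 10 genes (rows, ordered from the highest to the lowest transcript GC content), in log2(RPKM + 1), blue below and red above. The 5 genes from CDK11B to CDK12 are lowest in CDK12-2 AK39, CDK12-6 AK39 and luciferase AK41.

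CDK12 ranked 43rd from the lowest fold change among the 15208 genes tested, on the log2(RPKM + 1) scale. That scale understates the change of low genes, so the rank depends on it. The genes whose profiles over the 9 libraries were most like that of CDK12, by the root mean square difference of centred log2(RPKM + 1), were PSMD9 (0.0437), CORO1C (0.0561), SNF8 (0.0621), SDC4 (0.0625) and ABHD11 (0.0663). PSMD9, a proteasome assembly factor, had 2.499 ± 0.269 RPKM (n = 6) with CDK12 siRNA and 8.27 ± 1.21 RPKM (n = 3) with luciferase siRNA, close to CDK12 in level as well. CORO1C, an actin-binding coronin, had 42.4 ± 3.67 RPKM with CDK12 siRNA and 119 ± 7.07 RPKM with luciferase siRNA.

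Genes that act with or on the CTD kinases were read from lists chosen by function, with earlier results of these data known. Over all genes tested, 13.3% were higher and 19.7% lower (33.0% called), with a median log2 fold change of -0.037. Of the 4 regulators of P-TEFb reported here, 3 were higher, none was lower and 1 was not called, with a median log2 fold change of 0.44. HEXIM1, which holds P-TEFb inactive together with 7SK RNA, had 25.5, 30.4 and 33.6 RPKM with CDK12-2, 24.7, 29.004 and 32.7 RPKM with CDK12-6, and 17.3, 14.5 and 17.2 RPKM with luciferase. The groups did not overlap and the log2 fold change was 0.80 ± 0.12 (limma, adjusted p = 0.00072). MEPCE, the capping enzyme of 7SK RNA, rose by 0.51 ± 0.12 (limma, adjusted p = 0.0098), to 24.8 ± 3.26 RPKM with CDK12 siRNA against 17.1 ± 1.89 RPKM with luciferase siRNA. Without the AK41 libraries MEPCE did not pass (0.43, limma adjusted p = 0.15). HEXIM2, a second inhibitor of P-TEFb, rose by 0.37 ± 0.11 (limma, adjusted p = 0.032), a call that failed in 10 of 20 alternatives, including the removal of any single luciferase library (0.28 to 0.43, highest adjusted p = 0.12 without AK41). LARP7, which stabilises 7SK RNA, did not pass (-0.19 ± 0.13, limma adjusted p = 0.27).

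Of 10 CTD phosphatases and CTD-binding proteins, 3 were lower, none was higher and 7 were not called, with a median of -0.14. That share of calls was no higher than the 33.0% over all genes tested. RPRD1A, a CTD-binding protein, fell by 1.02 ± 0.075 on the log2 scale (limma, adjusted p = 2.0e-05), to 3.91 ± 0.254 RPKM (n = 6) with CDK12 siRNA against 8.99 ± 0.571 RPKM (n = 3) with luciferase siRNA. RPAP2, a CTD phosphatase, fell by 0.42 ± 0.065 (limma, adjusted p = 0.0011), to 1.31 ± 0.103 RPKM with CDK12 siRNA against 2.08 ± 0.128 RPKM with luciferase siRNA. CTDSPL, of the small CTD phosphatase family, fell by 0.30 ± 0.095 (limma, adjusted p = 0.034), a call that failed in 10 of 21 alternatives, including the removal of luciferase AK39 (-0.26, limma adjusted p = 0.15) or luciferase AK49 (-0.27, 0.13). The related genes RPRD1B and RPRD2 did not pass, at 0.090 ± 0.12 and 0.11 ± 0.16.

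Of the 7 Mediator kinase module genes, 6 were tested and 1 was higher, with a median of 0.019, against 33.0% of all genes called and 13.3% higher. CDK19, the paralogue of CDK8, rose by 0.61 ± 0.099 (limma, adjusted p = 0.0014), to 3.52 ± 0.533 RPKM (n = 6) with CDK12 siRNA against 1.96 ± 0.195 RPKM (n = 3) with luciferase siRNA, while CDK8 had -0.042 ± 0.074 (limma, adjusted p = 0.70). Of the 7 TFIIH core genes, 6 were tested and 1 was lower, against 19.7% of all genes, with a median of -0.23 against -0.037 over all genes. GTF2H3 fell by 0.43 ± 0.085 (limma, adjusted p = 0.0042), to 11.4 ± 1.01 RPKM with CDK12 siRNA against 15.7 ± 0.423 RPKM with luciferase siRNA. Without the AK41 libraries neither passed, at 0.53 for CDK19 and -0.49 for GTF2H3 (limma, adjusted p = 0.064 and 0.059). CDK11A and the cyclin L genes CCNL1 and CCNL2 gave no call.

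POLR2A, which encodes the subunit that carries the CTD, had 37.5, 57.7 and 73.0 RPKM with CDK12-2, 35.4, 47.4 and 69.6 RPKM with CDK12-6, and 28.9, 19.2 and 30.96 RPKM with luciferase. All 6 CDK12 siRNA libraries were above all 3 luciferase libraries, with the AK39 libraries of both CDK12 siRNAs nearest to them. The log2 fold change was 0.97 ± 0.25 (limma, adjusted p = 0.016). The call was lost without luciferase AK41 (0.76, limma adjusted p = 0.063), without all AK41 libraries (0.75, 0.18) and with no filter on low values (0.97, 0.058). Without the 3 libraries that stand apart it was 1.01 (limma, adjusted p = 0.0031).

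**Figure D5:**
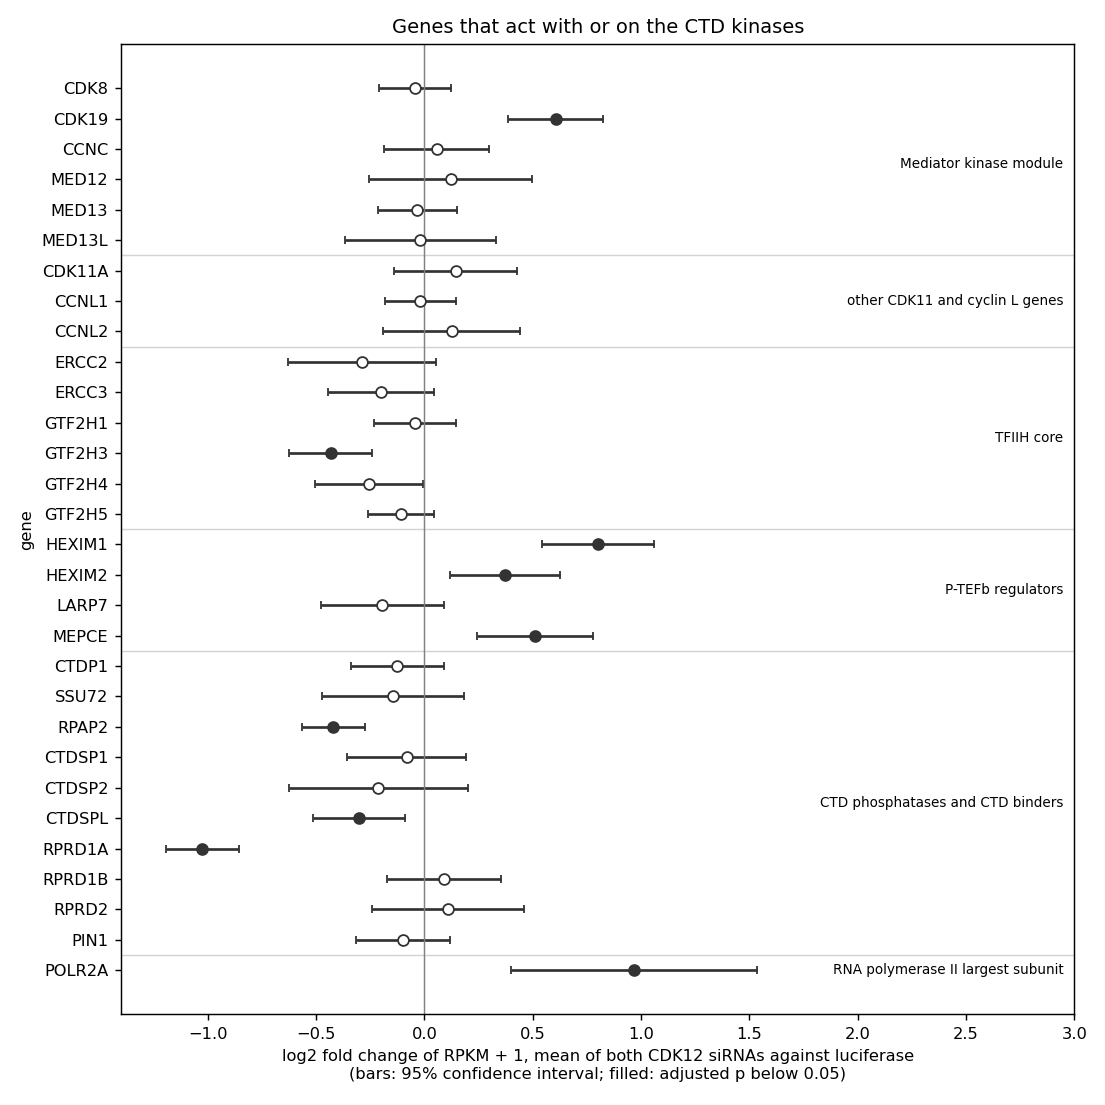
Log2 fold change of RPKM + 1 (horizontal axis) of genes that act with or on the CTD kinases, mean of both CDK12 siRNAs against luciferase, with 95% confidence intervals from limma and filled points where the adjusted p is below 0.05. HEXIM1 at 0.80 and POLR2A at 0.97 lie on the higher side and RPRD1A at -1.02 on the lower, while most points are open.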

How the data were processed

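RNA was sequenced with a TruSeq mRNA kit, per the labels' protocols, and 9 libraries in 3 groups were used. The authors deposited RPKM values for 57773 genes with hg19 coordinates and gene lengths; the submitters' processing notes name TopHat2 (version 2), featureCounts and edgeR. The deposited table also holds the authors' log2 fold change and FDR, an adjusted p-value, for 1 comparison. Its header does not name the libraries, but its fold changes followed the ratio of mean RPKM of the 6 CDK12 siRNA over the 3 luciferase libraries (Pearson r = 0.99987 over tested genes, which are not independent).

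The RPKM values were tested as log2(RPKM + 1) with limma 3.58.1 in R 4.3.3 (eBayes with trend, 3 groups in 1 fit). The fit took the 15208 genes that reached 1 RPKM in 3 or more libraries, with Benjamini-Hochberg adjustment over all of them and a threshold of 0.05. All 10 members exceeded 1 RPKM in every library. Ratios were compared by exact permutation of libraries. Deviations from group means correlated at 0.13 to 0.81 for the 3 same-number pairs of CDK12-2 and CDK12-6 libraries. Same-number pairs with luciferase ran from -0.56 to 0.76. Pairs of different numbers ran from -0.83 to 0.80, so a high correlation was not particular to libraries of the same number. The tests of both siRNAs against luciferase treat the 6 CDK12 siRNA libraries as independent, and averaging them by number was an alternative. The library sizes come from whole reads recovered from RPKM times listed length plus 1 base, 100% of them whole within 0.001. Code was tested on simulated data. Sequences are from GENCODE release 29, 1 transcript per gene, except the counts of shared stretches, which pooled all protein-coding transcripts of each gene.

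The members, lists and alternatives were chosen with earlier results of these data known. The text names all members, the 5 genes most like CDK12 and the called genes of each list. HEXIM1 and POLR2A per library, KRT7 and EPCAM, the overlapping genes and further genes of the lists were named after their values were seen. PECAM1 was not used here. A further gene of the P-TEFb list is not reported here, and the counts of that list leave it out.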

Additional observations from a re-analysis of the deposited data

How the results depend on the processing

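CDK12 was called in all 21 alternatives for the mean of both siRNAs, at -1.72 to -1.28, and in all 21 for each siRNA. CCNT2 stayed higher in all 21 (0.23 to 0.36) and passed in 13, and CDK9 stayed lower (-0.51 to -0.15) and passed in 6. The members called for the mean of both siRNAs were 2, against 4 after quantile normalization and 5 after scaling to the reads in listed genes. Over all genes tested, 5024 of 15208 were called, against 6596 of 15208 and 6538 of 15168 in those settings. The member count was 1 with the CDK12-2 and CDK12-6 libraries of a number averaged, where 3726 of 15208 genes were called. It was 1 to 3 without single libraries or AK numbers, where 1628 to 5285 genes were called over all. For CDK12-2 the member count was 1 with no filter on low values, a filter at 5 RPKM, scaling to listed genes or only the groups compared. In that order, 4370 of 44118, 1945 of 8351, 5499 of 15168 and 3400 of 14857 genes were called over all. The member count was 1 to 2 without single libraries, where 2205 to 4171 genes were called over all. For CDK12-6 the member count was 1 with no filter, scaling to listed genes or only the groups compared. In that order, 4383 of 44118, 5570 of 15168 and 3474 of 14857 genes were called over all. The member count was 1 to 2 without single libraries, where 2173 to 4396 genes were called over all. Directions of uncalled members turned when libraries were left out: CDK13 ranged from -0.029 to 0.18 for the mean of both siRNAs, -0.016 to 0.21 for CDK12-2 and -0.093 to 0.16 for CDK12-6, CCNK from -0.33 to 0.0094 for the mean and -0.33 to 0.033 for CDK12-2, CCNH from -0.096 to 0.032 for the mean and -0.051 to 0.11 for CDK12-6, and CDK7 from -0.036 to 0.092 for CDK12-2. CCNH was 0.040 after quantile normalization and 0.032 after scaling to listed genes.

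Without the 3 libraries rich in RNA lacking a poly(A) tail, the log2 ratio differences were -1.78 for CDK12 to CDK13, 0.54 for CCNK to CDK12 plus CDK13 and -0.12 for CCNH to CDK7, each at the smallest exact permutation p of that design, 0.0667. Without single libraries or AK numbers they ranged from -1.80 to -1.75 for CDK12 to CDK13, 0.49 to 0.64 for CCNK to CDK12 plus CDK13, -0.11 to -0.081 for CCNH to CDK7, 0.062 to 0.20 for CCNT2 to CCNT1, 0.39 to 0.85 for cyclin T to CDK9 and 0.070 to 0.17 for MNAT1 to CDK7.

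Over all genes the count of calls was 5024, and fell to 2935 without luciferase AK39, 3239 without luciferase AK49, 3046 without all AK39 and 1628 without all AK41 libraries. Scaling to listed genes gave 3391 higher and 3147 lower genes, against 2027 higher and 2997 lower. Deviations of same-number CDK12-2 and CDK12-6 libraries correlated at 0.76 (AK39), 0.13 (AK41) and 0.81 (AK49). Between same-number CDK12 siRNA and luciferase libraries the correlations ran from -0.56 (CDK12-2 AK39) to 0.76 (CDK12-6 AK49). Between libraries of different numbers they ran from -0.83 (CDK12-6 AK49 with luciferase AK41) to 0.80 (CDK12-6 AK39 with luciferase AK41). Whether the numbers pair the libraries is not settled by these values. A replicate block over all libraries gave 3 members, adding CDK9 (limma, adjusted p = 0.048), and 6241 genes. Between the 2 siRNAs the replicate block called 0 members. Averaging the same-number CDK12 siRNA libraries gave 3726 genes. For the ratios it gave the same log2 differences, -1.77 for CDK12 to CDK13, 0.54 for CCNK to CDK12 plus CDK13 and -0.098 for CCNH to CDK7, at an exact permutation p of 0.1 each, adjusted 0.2. A limma voom fit on the recovered reads gave 5028. The averaging, the block between the 2 siRNAs and the voom fit were added after seeing the data. The planned edgeR and DESeq2 alternatives were not run, since the deposited unit is RPKM. The cause of these shifts was not tested. Each member had at least 2076 reads per library, and the part of read depth in the spread between libraries was not tested.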
